A study of Mus musculus with 12 samples.

Results

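Trbv14 is 1 of the V regions from which the variable part of the mouse T cell receptor beta chain is built. Its clonotypes were taken from the deposited clonotype lists as every listing with the chain TRBC, the beta chain, and the V region V14. The gene was chosen by values of these same lists, namely its share of UMIs and of clonotypes in each library, its J pairing, its CDR3 length and the presence of its largest tumor clonotypes elsewhere, so these values are a description and carry no test. A clonotype is a V region with its J region and CDR3 bases in 1 library, and a UMI is a molecular tag that counts 1 RNA molecule. V14 accounted for 40440 of 968766 TRBC clonotype listings and of 1502315 listings over 4 receptor chains. No listing of another chain named V14, and 1 TRBC listing named it together with other V regions and was left out.

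The libraries came from C57BL/6J mice, 6 to 8 weeks old and of WT genotype, that bore tumors of MTCQ1-2, a mouse oral squamous carcinoma line. The mice received control IgG, IL-10-Fc (interleukin-10 joined to an Fc part), αCSF1R (an antibody that blocks the CSF-1 receptor of macrophages) or BF10 (that antibody fused to interleukin-10). The labels give 30 mg/kg for every agent, in 3 doses 3 days apart, whereas the study's methods give a dose of its own to IL-10-Fc and to BF10. CD8 T cells were isolated with magnetic beads from tumor, spleen and tumor-draining lymph node (tdLN), and the RNA of 3 mice was mixed into 1 library for each treatment and tissue, 12 libraries in all. With 1 library per treatment and tissue there is no replicate, and the intervals below are 95% intervals of counting error only. The lists hold receptor transcripts and no other genes, so the CD8 label could not be checked against marker genes. TRBC made up 52.2% to 73.5% of the UMIs of a library, and the gamma chain 0.254% to 7.15%.

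A beta chain gene is assembled in the thymus by joining 1 V, 1 D and 1 J region, with bases trimmed and added at each joint. The joint encodes CDR3, the loop that mostly contacts the peptide held by an MHC molecule, whereas the loops encoded by the V region itself mostly contact the MHC molecule. Cells that descend from 1 assembled cell share its joint, so the number of UMIs of a clonotype follows both the number of such cells and the RNA in each, which cannot be told apart here.

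Trbv14 lies on the plus strand of chromosome 6 of the mouse assembly GRCm38, at chr6:41135145-41135616, with a first exon at 41135145 to 41135215 and a second exon at 41135320 to 41135616. Its neighbours are Trbv13-3, which ends 4.56 kb before it, and Trbv15 and Trbv16, which start 5.57 and 16.1 kb after its end. The D and J regions lie about 400 kb further on, with Trbd1 starting 398 kb and Trbj2-7 408 kb after the end of Trbv14. The second exon ends with the 16 bases that begin a Trbv14 CDR3, from the codon of the conserved cysteine, and the recombination signal that the RAG recombinase cuts follows at once. The sequence below shows both, with the CDR3 part in capitals and the signal, which opens with the heptamer cacagta, in lower case, from chr6:41135601-41135655. The ends of the 3 neighbours are given after it because they share most of these bases.
Trbv14 end and signal: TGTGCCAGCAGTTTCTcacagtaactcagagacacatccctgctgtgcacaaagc
Trbv13-3 end: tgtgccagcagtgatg
Trbv15 end: tgtgccagcagtttagc
Trbv16 end: tgtgcaagcagcttaga

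Trbv14 took a small part of the UMIs of 2 tumor libraries and a larger part of the other 2. It made up 1.99% (95% Wilson interval 1.91 to 2.08) of TRBC UMIs in the control IgG tumor and 1.56% (1.43 to 1.70) in the αCSF1R tumor. In the IL-10-Fc tumor its share was 4.76% (4.65 to 4.88), and in the BF10 tumor 4.56% (4.47 to 4.66). The counts behind these shares were 2071 of 104036 TRBC UMIs with control IgG, 512 of 32784 with αCSF1R, 6196 of 130104 with IL-10-Fc and 7990 of 175080 with BF10. Thus the 2 libraries with an interleukin-10 agent stood above the 2 without one, by more than the counting error. These intervals treat each UMI as a separate draw, although UMIs of 1 clonotype come in groups. The same 2 libraries listed more TRBC clonotypes, 54779 with IL-10-Fc and 90267 with BF10, against 9466 with control IgG and 2493 with αCSF1R. Their gamma chain share was lower, in the same order 0.495% and 0.397% against 3.41% and 7.15% of UMIs. The part of these differences in the Trbv14 shares was not tested.

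The spleen and tdLN libraries varied far less between treatments. The share was 4.30%, 4.71%, 4.16% and 5.003% in spleens after control IgG, after IL-10-Fc, after αCSF1R and after BF10. In tdLN it was 3.39% (3.30 to 3.50), 3.65%, 3.01% and 3.57% in the same order. The titles of the tdLN libraries lack the CD8 mark of the tumor and spleen titles, although their other labels give CD8 T cells, and the part of this in the tdLN values was not tested. All 4 tdLN shares lay below all 4 spleen shares, as they did for 5 of the 20 V regions with at least 100 UMIs in every library (25%), so that Trbv14 was not alone in this. Trbv12-1, Trbv12-2, Trbv13-3 and Trbv29 were the others, and for 7 of the 20 all 4 tdLN shares lay above all 4 spleen shares. In the order of the 12 libraries from the highest share (spleen, BF10) to the lowest (tumor, αCSF1R), 5 of the 11 neighbouring pairs had overlapping intervals. IL-10-Fc tumor, IL-10-Fc spleen and BF10 tumor followed each other with overlapping intervals, whereas the control IgG and αCSF1R tumors were apart from each other and from the rest.

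Counted as clonotypes, each once, the 4 tumors lay close together. Its share of TRBC clonotypes was 4.30% (3.91 to 4.73) with control IgG, 4.68% (4.51 to 4.86) with IL-10-Fc, 4.33% (3.60 to 5.20) with αCSF1R and 4.85% (4.71 to 4.99) with BF10. These shares rested on 407, 2566, 108 and 4377 Trbv14 clonotypes. The BF10 tumor stood highest, at 1.13-fold (1.02 to 1.25) the control IgG tumor. The intervals of the folds for IL-10-Fc (0.984 to 1.21) and αCSF1R (0.819 to 1.24) included 1. This order depended on the setting. When CDR3s 1 base apart were merged, the αCSF1R tumor stood highest, at 5.04% against 4.86% with BF10 and 4.57% with control IgG. With at least 7 reads per UMI the BF10 and control IgG tumors had 4.60% and 4.47%. Without these changes the clonotype share was 4.38% to 5.10% in spleen and 3.23% to 3.83% in tdLN. The tdLN therefore lay below spleen by this measure too, again in company with 4 other V regions of 20 (25%), and also below the 4 tumors, likewise as 1 of 5 V regions of 20 (25%). In each of these comparisons the tdLN lay above for 7 V regions of 20. With intervals taken into account, 9 of the 11 neighbouring pairs in the order of clonotype shares overlapped.

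**Figure D1:**
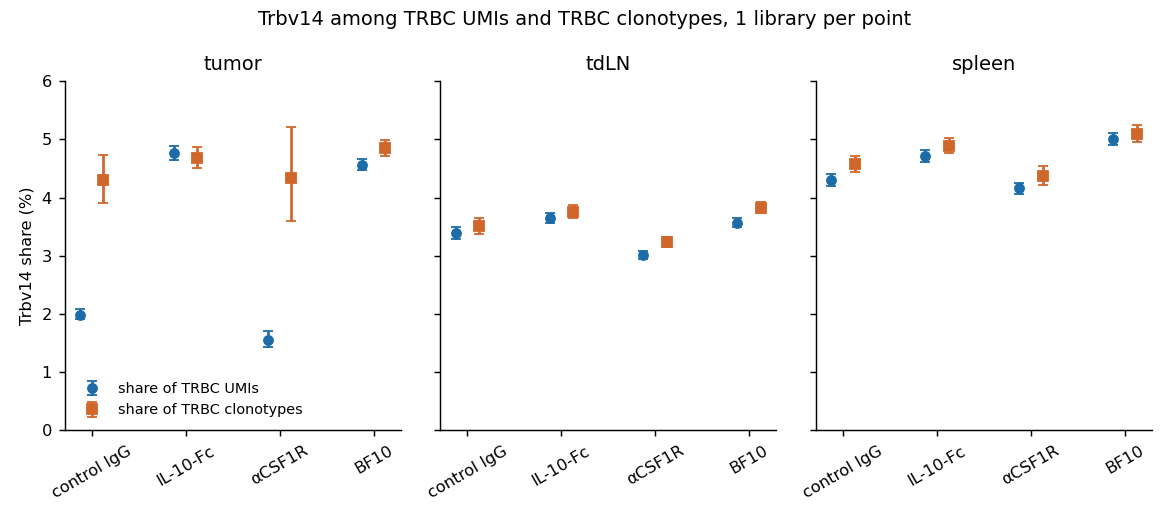
Share of Trbv14 (percent) among TRBC UMIs (circles) and TRBC clonotypes (squares) in the 12 libraries, by tissue and treatment, with 95% Wilson intervals of counting error. In the control IgG and αCSF1R tumors the UMI share (1.99% and 1.56%) lies far under the clonotype share (4.30% and 4.33%), whereas both measures lie close together in the other 10 libraries.

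The gap between the measures was seen in the clone sizes. A Trbv14 clonotype held on average 5.09 UMIs in the control IgG tumor, against 11.3 for TRBC clonotypes of other V regions, and 4.74 against 13.5 in the αCSF1R tumor. In the IL-10-Fc tumor the averages were 2.41 and 2.37, and in the BF10 tumor 1.83 and 1.95. In spleen and tdLN libraries the Trbv14 average was 1.26 to 2.28 UMIs and that of other V regions 1.35 to 2.41.

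In the control IgG and αCSF1R tumors the large clonotypes were mostly of other V regions. With control IgG, 76 TRBC clonotypes each reached 0.1% of TRBC UMIs and together held 50.2% of them, and with αCSF1R also 76 did, which held 61.5%. None of either set used Trbv14, and 0 of 76 allows a share of up to 3.95%, which is close to the share of Trbv14 among all clonotypes of these tumors. The largest Trbv14 clonotypes of these tumors fell just short of that size, with 94 UMIs (0.0904%, 0.0738 to 0.111) under control IgG and 31 UMIs (0.0946%, 0.0666 to 0.134) under αCSF1R. At a limit of 0.05% of TRBC UMIs, Trbv14 held 1 of 125 clonotypes with control IgG and 1 of 163 with αCSF1R. In the IL-10-Fc tumor 23 TRBC clonotypes reached 0.1%, and 3 of these used Trbv14. In the BF10 tumor 3 did, none with Trbv14. When every TRBC clonotype of at least 0.1% was left out, the Trbv14 share of the remaining UMIs was 3.99% (3.83 to 4.16), 4.37%, 4.05% (3.72 to 4.41) and 4.58% in the tumors after control IgG, after IL-10-Fc, after αCSF1R and after BF10. The 4 values then lay between 3.99% and 4.58%. In the control IgG and αCSF1R tumors a higher share follows by construction, since none of the clonotypes left out used Trbv14.

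Between libraries, a TRBV gene was counted as different when its UMI share changed at least 1.5-fold in either direction. The Trbv14 share was 2.39-fold (95% counting interval 2.28 to 2.51) that of the control IgG tumor in the IL-10-Fc tumor and 2.29-fold (2.19 to 2.40) in the BF10 tumor. In each of these comparisons 15 of 22 TRBV genes passed 1.5-fold (68.2%), of which 9, Trbv14 among them, were higher and 6 lower than in the control IgG tumor. Only Trbv30 had a larger fold with IL-10-Fc, and Trbv3, Trbv4 and Trbv29 had larger folds with BF10. With αCSF1R the Trbv14 share was 0.785-fold (0.713 to 0.863) that of control IgG and did not pass the limit, whereas 14 of 22 genes did (63.6%).

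In tdLN the Trbv14 share with IL-10-Fc, αCSF1R and BF10 was 1.07, 0.887 and 1.05 times that of control IgG. The genes past 1.5-fold were 1 of 24 (4.17%), 0 of 23 (0%) and 1 of 23 (4.35%), and Trbv14 was not among them. In spleen the folds were 1.10, 0.966 and 1.16, and no TRBV gene passed 1.5-fold in any of the 3 comparisons (0%). Against the spleen of the same treatment, Trbv14 was 0.463-fold (0.441 to 0.486) in the control IgG tumor, where 68.2% of TRBV genes passed 1.5-fold, and 0.376-fold (0.344 to 0.411) in the αCSF1R tumor, where 81.8% did. With IL-10-Fc the tumor was 1.01-fold (0.978 to 1.04) its spleen (0% of genes past the limit) and with BF10 0.912-fold (0.885 to 0.941; 4.55% of genes). By clonotype share none of the 13 folds passed 1.5, and they ran from 0.921 to 1.13. Most TRBV genes stayed within 1.5-fold by this measure. Against the control IgG tumor, 1 of 22 genes was higher and 2 were lower with IL-10-Fc and likewise with BF10. With αCSF1R 2 of 22 were higher and 0 lower, and against its own spleen 3 of 22 were higher and 0 lower. Between spleens 0 of 22 or 23 genes passed.

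**Figure D2:**
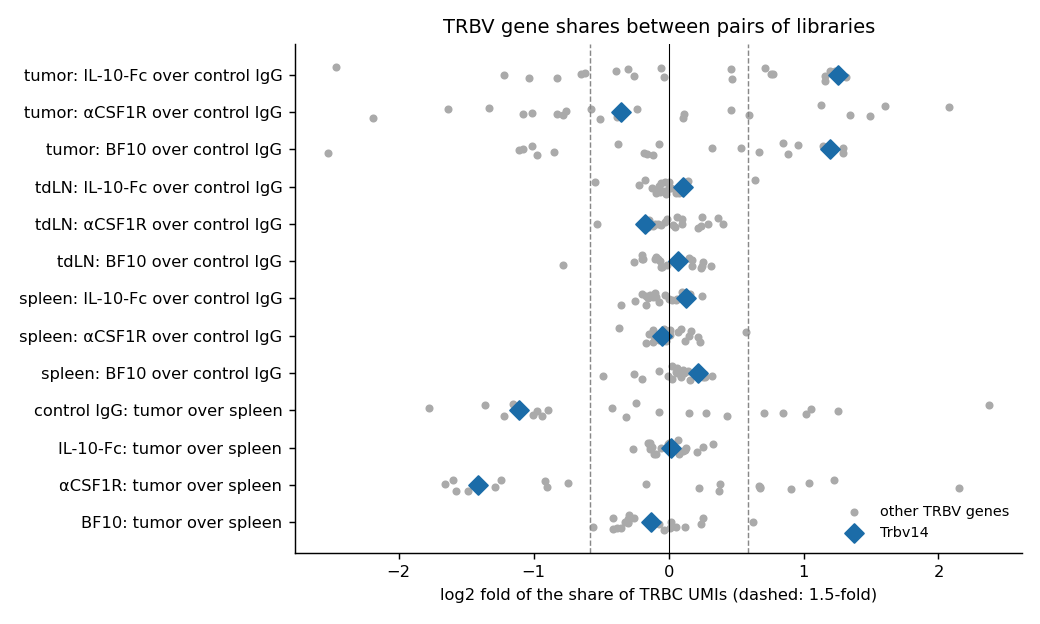
Log2 fold of the share of TRBC UMIs between pairs of libraries for Trbv14 (diamonds) and every other TRBV gene with at least 100 UMIs in the pair (grey points, spread vertically for visibility), with dashed lines at 1.5-fold. Trbv14 passes the lines in 4 of the 13 comparisons, all of which involve the control IgG or αCSF1R tumor, where between 68.2% and 81.8% of TRBV genes pass in one direction or the other.

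The V regions whose UMI shares moved most like that of Trbv14 over the 12 libraries were Trbv12-2 (Spearman's rho 0.97), Trbv13-3 (0.82) and Trbv29 (0.80), out of 19 compared. Trbv20 (-0.88) and Trbv5 (-0.86) ran most opposite to it. These are shares of 1 total, so a gene that grows takes share from all others, and the 12 points include the 2 tumors whose clonotypes of at least 0.1% held 50.2% and 61.5% of TRBC UMIs. The Trbv12-2 share was 3.73% and 2.51% in the control IgG and αCSF1R tumors and 4.04% to 5.52% in the other 10 libraries. Counted as clonotypes, rho with Trbv12-2 was 0.60, with Trbv13-3 0.74 and with Trbv29 0.85. The neighbours in the locus did not all share the pattern. Trbv13-3 took 2.69% of UMIs in the control IgG and 1.59% in the αCSF1R tumor, whereas Trbv15 took 2.34% and 6.59% and Trbv16 8.94% and 19.5%, so the latter pair were highest of all libraries in the αCSF1R tumor.

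Trbv14 was joined more often to the Trbj2 than to the Trbj1 cluster of J regions. Trbj2 regions made up 64.6% to 80.1% of Trbv14 UMIs, with a median of 74.4% over the 12 libraries. For other V regions they made up 57.1% to 70.8% (median 68.7%). The Trbv14 value was the higher in all 12 libraries, which held for 4 of 20 V regions (20%; Trbv4, Trbv12-2 and Trbv16 beside it). The lowest value came from the αCSF1R tumor, with 108 clonotypes, and the highest from the IL-10-Fc tumor, whose 3 largest Trbv14 clonotypes all used Trbj2. With each clonotype counted once the range was 66.7% to 77.5%.

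Trbj2-7 was the most used partner, with a median of 23.7% of Trbv14 clonotypes (21.3% to 25.2%) against 20.8% of other clonotypes. It was higher with Trbv14 in all 12 libraries, as for 4 of 20 V regions (20%). Trbj2-1 came next with a median of 15.3% against 13.7%, higher in all 12 libraries, again as for 4 of 20 V regions (20%). Trbj2-5 followed with 12.0% against 10.6% and Trbj2-4 with 10.1% against 9.29%, higher in 9 and in 10 libraries. Trbj2-3 (8.33% against 9.22%) was lower in 10 libraries, and Trbj2-2 (5.32% against 5.20%) was higher in 9.

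Within the other cluster, Trbj1-2 showed the widest gap. It was joined to 2.98% of Trbv14 clonotypes (2.05% to 3.23%) and to 5.91% of other clonotypes (5.51% to 6.97%), a median ratio of 0.47, and the 2 ranges did not overlap. The Trbv14 value was the lower in 12 of 12 libraries, which held for 4 of 20 V regions (20%), the others being Trbv15, Trbv17 and Trbv19. By UMIs the range for Trbv14 widened to 1.85% to 7.48%, with the top value in the control IgG tumor, where the largest Trbv14 clonotype used Trbj1-2. Trbj1-1 (7.52% against 8.80%) and Trbj1-3 (3.50% against 4.41%) were each lower with Trbv14 in 11 libraries. Trbj1-4 (6.03% against 6.07%), Trbj1-5 (2.26% against 2.70%) and Trbj1-6 (2.55% against 2.68%) were lower in 8, 9 and 7 libraries. The αCSF1R tumor departed from the others in Trbj1-5, with 10.2% of its 108 Trbv14 clonotypes.

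**Figure D3:**
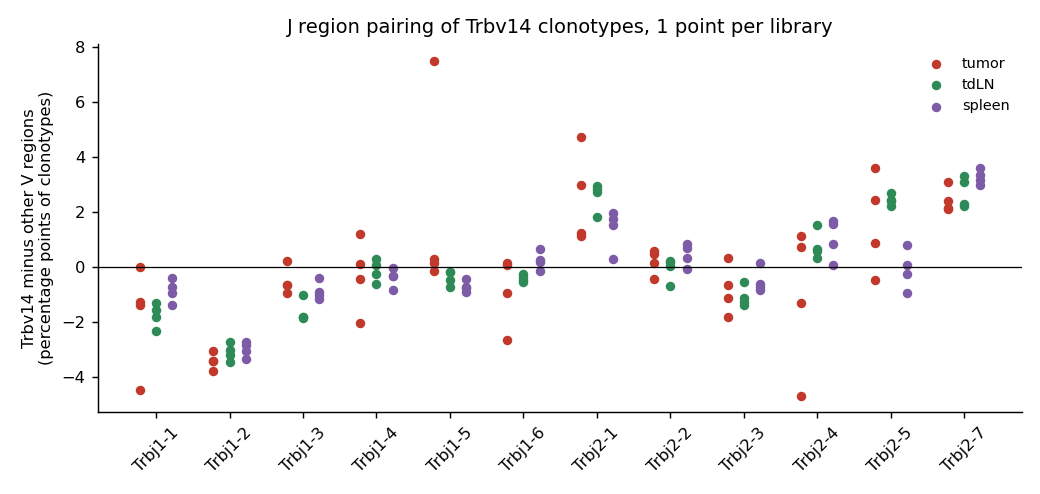
Difference in J region use between Trbv14 clonotypes and clonotypes of other V regions (percentage points of clonotypes, each library 1 point, colored by tissue). All 12 points lie below 0 for Trbj1-2 and above 0 for Trbj2-1 and Trbj2-7. The highest point of Trbj1-5 is the αCSF1R tumor with 108 Trbv14 clonotypes.

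The CDR3 of Trbv14 was slightly shorter than average. Its mean length over clonotypes was 13.54 residues in the control IgG tumor (SD 1.37 over 407 clonotypes), 13.64 in the αCSF1R tumor (SD 1.29 over 108) and 13.66 to 13.72 in the other 10 libraries. Other V regions had means of 13.82 to 13.99 in the same libraries, and the Trbv14 mean was lower in all 12, by 0.175 to 0.445 residues. The widest gap was in the control IgG tumor, where other V regions had an SD of 3.52, against 1.76 to 2.60 elsewhere. Weighted by UMIs the Trbv14 mean was lower in 11 libraries, with 13.43 against 13.59 residues in the control IgG tumor. In the αCSF1R tumor it was higher, at 13.76 residues against 13.52 for other V regions. Over clonotypes, a mean below that of the rest in all 12 libraries held for 8 of 20 V regions (40%) and so was common. Trbv14 had the sixth shortest clonotype mean. The median was 14 residues on both sides. Clonotypes longer than 16 residues made up 0% to 1.58% with Trbv14 and 2.29% to 3.18% with other V regions. Those shorter than 12 residues made up 4.63% to 8.85% and 4.98% to 8.22%.

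Joints were split by comparing each CDR3 with the germline bases: the leading bases equal to the Trbv14 end, the trailing bases equal to the start of its J region, and the bases between, which hold the D part and added bases. On average 12.7 to 13.0 of the 16 germline V bases were kept, 17.6 to 18.1 J bases followed, and 9.80 to 10.4 bases lay between. The SD of the middle part over clonotypes was 3.99 to 4.59 bases in each library. Apart from the αCSF1R tumor its mean was lowest in the BF10 tdLN, at 10.1 bases (SE 0.0525 over 5785 clonotypes), and highest in the BF10 tumor, at 10.4 (SE 0.0603 over 4377). The last whole codon of the Trbv14 end, TTC for phenylalanine, was kept whole (at least 15 bases) in 20.7% to 22.7% of clonotypes in 10 libraries. It was kept in 101 of 407 clonotypes (24.8%, 20.9 to 29.2) of the control IgG tumor and in 31 of 108 (28.7%, 21.02 to 37.8) of the αCSF1R tumor, and the lower bounds of both intervals lie within the range of the other 10 libraries. Fewer than 9 V bases, which would leave the cysteine, alanine and serine codons incomplete, were kept in 0.884% to 1.56% of clonotypes.

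The D region was called from the middle part as the longest exact match of at least 5 bases. The sequences of the 2 D regions are given because they recur in the clonotypes below.
Trbd1: gggacagggggc
Trbd2: gggactgggggggc
Of 10178 Trbv14 clonotype listings with a Trbj1 region, 55.9% held a Trbd1 match, 5.55% a longer Trbd2 match and 38.6% could not be told apart. Of 30262 with a Trbj2 region, 36.0% held a Trbd1 and 36.2% a Trbd2 match. Trbd2 lies after the Trbj1 cluster in the locus and joins to the Trbj2 cluster. The calls are matches of bases only, also those of Trbd2 with a Trbj1 region. How often a call names the wrong D region was not tested.

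The largest Trbv14 clonotype of all libraries was in the IL-10-Fc tumor. It had 476 UMIs, 0.366% of TRBC UMIs (0.334 to 0.400), and was the largest TRBC clonotype of that tumor. The second had 177 UMIs (0.136%, 0.117 to 0.158) and the third 151 (0.116%, 0.0990 to 0.136), at places 18 and 21 among TRBC clonotypes. After these came a step down to 18 and 17 UMIs. The first 3 held 13.0% of the Trbv14 UMIs of the library, and without them the Trbv14 share was 4.17% instead of 4.76%. Their CDR3 sequences follow, with the bases that match neither the Trbv14 end nor the J start in capitals.
IL-10-Fc tumor, place 1 (Trbj2-1, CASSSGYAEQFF): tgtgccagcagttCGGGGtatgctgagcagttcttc
IL-10-Fc tumor, place 2 (Trbj2-7, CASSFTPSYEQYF): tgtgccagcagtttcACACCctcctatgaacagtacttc
IL-10-Fc tumor, place 3 (Trbj2-5, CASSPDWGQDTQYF): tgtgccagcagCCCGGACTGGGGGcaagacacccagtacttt

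All 3 were also listed in the tdLN of the same treatment. The first had 21 UMIs there and was in no other library. The second had 26 UMIs in the IL-10-Fc tdLN, 1 in the IL-10-Fc spleen and 1 in the BF10 tumor. The third had 3 UMIs in the IL-10-Fc tdLN, 3 in the IL-10-Fc spleen and 2 in the control IgG spleen. Of their tumor UMIs, 230, 88 and 84 had at least 7 reads.

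In the control IgG tumor the largest Trbv14 clonotype had 94 UMIs, 4.54% of Trbv14 UMIs, and stood at place 82 among TRBC clonotypes. It had 23 UMIs in the control IgG tdLN, 3 in the control IgG spleen and 2 in the αCSF1R tdLN. The second had 38 UMIs in the tumor and 4 in the control IgG tdLN. The other 3 of the 5 largest, with 33, 22 and 21 UMIs, were listed in no other library. The 2 shared ones are shown, with capitals as above.
control IgG tumor, place 1 (Trbj1-2, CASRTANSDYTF): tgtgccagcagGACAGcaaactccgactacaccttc
control IgG tumor, place 2 (Trbj2-1, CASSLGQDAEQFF): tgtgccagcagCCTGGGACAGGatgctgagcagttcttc

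In the αCSF1R tumor the largest had 31 UMIs, 6.05% of the 512 Trbv14 UMIs, and was in no other library. Of the next 4, with 14, 14, 13 and 12 UMIs, a Trbj1-2 clonotype with 14 had 14 UMIs in the αCSF1R tdLN as well, and the other with 14 had 1 UMI in the control IgG tdLN. The largest and the clonotype shared with the tdLN are shown.
αCSF1R tumor, place 1 (Trbj1-6): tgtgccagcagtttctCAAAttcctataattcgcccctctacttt
αCSF1R tumor, shared with its tdLN (Trbj1-2, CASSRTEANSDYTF): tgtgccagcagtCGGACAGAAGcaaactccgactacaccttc

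In the BF10 tumor no Trbv14 clonotype stood out. The largest had 41 UMIs, 0.0234% of TRBC UMIs and 0.513% of Trbv14 UMIs, and the 10 largest together held 1.90% of Trbv14 UMIs. In the control IgG, IL-10-Fc and αCSF1R tumors the 10 largest held 14.2%, 14.4% and 26.8%. The first had 1 UMI in the BF10 tdLN, the second, with 24 UMIs in the tumor, had 13 there, and the fourth, with 13, had 3. These 3 were in no other library, and the other two of the 5 largest, with 22 and 11 UMIs, were in the BF10 tumor alone.
BF10 tumor, place 1 (Trbj1-6, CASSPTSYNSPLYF): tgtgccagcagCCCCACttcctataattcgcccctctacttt
BF10 tumor, place 2 (Trbj2-4): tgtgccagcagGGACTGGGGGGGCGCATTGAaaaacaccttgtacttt
In the second, the capitals hold a run that also occurs in Trbd2.

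**Figure D4:**
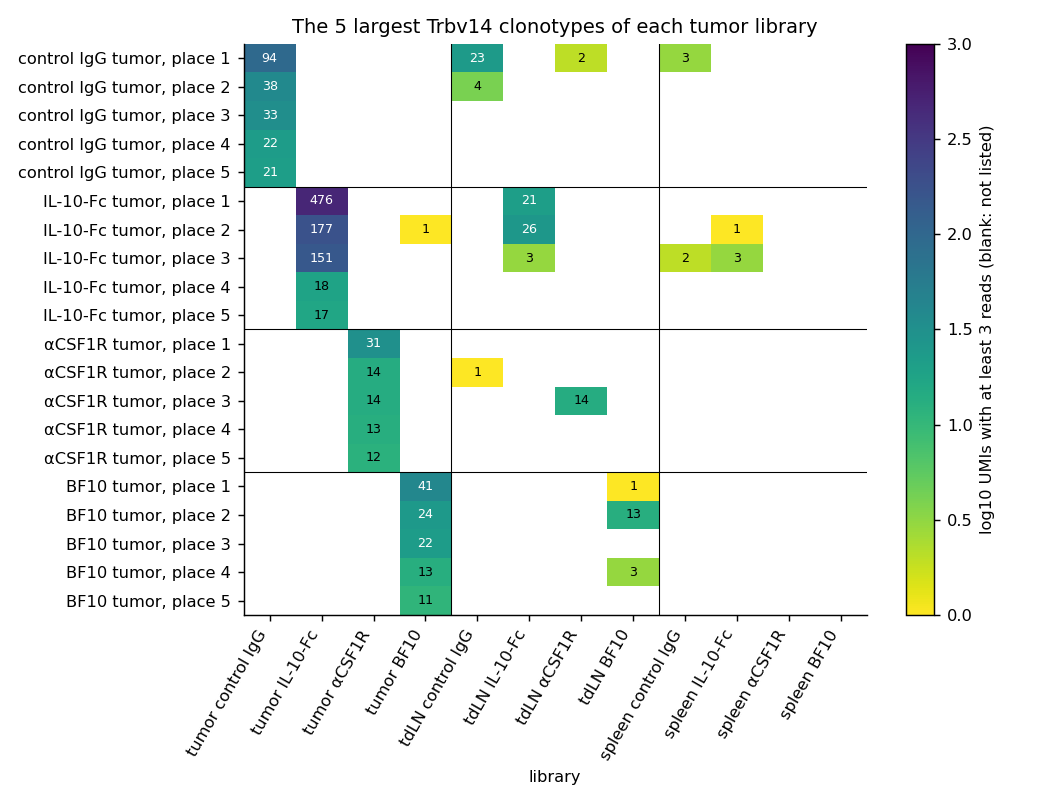
UMIs with at least 3 reads of the 5 largest Trbv14 clonotypes of each tumor library (rows, by place in their tumor) in all 12 libraries (columns), colored on a log10 scale, blank where not listed. Of the 20 clonotypes, 9 are listed in the tdLN and 3 in the spleen of the same treatment, against 2 and 1 listings over 60 clonotype and library combinations of other treatments.

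Over the 20 clonotypes, 9 were listed in the tdLN of the same treatment, whereas the tdLN of other treatments gave 2 listings in 60 combinations of clonotype and library. For spleen the counts were 3 of 20 and 1 of 60. A clonotype missing from a library may lie under its depth, although the lists go down to clonotypes with 1 UMI. An unlisted clonotype may still have a share of up to 3 counts. These are 0.00142% to 0.00241% of TRBC UMIs in the tdLN and 0.00180% to 0.00200% in the spleen libraries. With the 100 largest Trbv14 clonotypes of each tumor the difference was smaller. The tdLN of the same treatment listed 7 with control IgG, 8 with IL-10-Fc, 7 with αCSF1R and 10 with BF10, 32 of 400 in all (8%), and those of other treatments listed 1 to 6 each, 47 of 1200 (3.92%). The spleens of the same treatment listed 2, 8, 3 and 5, 18 of 400 (4.50%), and those of other treatments 1 to 7, 43 of 1200 (3.58%). In the αCSF1R tumor the 100 largest reach down to clonotypes with 1 UMI, since it had 108.

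The overlap by abundance was measured with the Morisita-Horn index, which is 0 for libraries with no clonotype in common and 1 for equal composition. For Trbv14 the index between tumor and tdLN was 0.0895 with control IgG, 0.0864 with IL-10-Fc, 0.00837 with αCSF1R and 0.0461 with BF10. Its mean over same-treatment pairs was 13.3 times that over different treatments (0.0576 against 0.00432). Between tdLN and spleen the ratio was 2.17 and between tumor and spleen 1.52. In each of the 3 tissue pairs the true pairing of the 4 treatments gave the highest mean of the 24 possible, which is given without a test because the presence of tumor clonotypes in tdLN and spleen was used to choose the gene. Between tumor and spleen this order did not hold with CDR3 amino acids, with at least 7 reads per UMI or with at least 2 UMIs per clonotype, where the true pairing came at place 3, 3 and 2. The ratio for tumor and tdLN was 8.21 without IL-10-Fc and 23.4 without BF10, and that for tumor and spleen was 3.30 without BF10. TRBC clonotypes of other V regions gave ratios of 4.76, 2.23 and 1.46, with the true pairing likewise the highest. For tumor and tdLN their means were 0.0592 over same-treatment pairs and 0.0124 over different treatments. Their same-treatment mean was thus close to that of Trbv14, and the ratios differed through the mean over different treatments. The pairing by treatment was already known for all TRBC clonotypes of these libraries, so its presence in Trbv14 is no independent evidence. Between tumor and spleen the same-treatment index was the highest in 3 of 4 treatments, and the BF10 tumor had a higher index with the IL-10-Fc spleen (0.0217) than with its own (0.0184).

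Spleen and tdLN clonotypes were mostly small. The largest Trbv14 clonotypes of the tdLN libraries had 44, 98, 66 and 29 UMIs after control IgG, after IL-10-Fc, after αCSF1R and after BF10, none of which was listed in a tumor. In spleen they had 10, 27, 31 and 27 UMIs. That of the IL-10-Fc spleen, although only 0.0162% of TRBC UMIs, was the largest TRBC clonotype of that library, and it had 9 UMIs in the IL-10-Fc tumor and 2 in the BF10 tdLN. That of the αCSF1R spleen had 5 UMIs in the αCSF1R tdLN and 2 in the IL-10-Fc tumor. Both sequences leave few bases between the V and J ends.
IL-10-Fc spleen, largest (Trbj2-4, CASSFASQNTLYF): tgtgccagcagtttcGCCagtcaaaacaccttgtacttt
αCSF1R spleen, largest (Trbj1-3, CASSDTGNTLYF): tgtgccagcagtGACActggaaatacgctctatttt

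Most Trbv14 joints were listed in 1 library only. Of 37473 distinct clonotypes, 35232 (94.0%) were listed in 1 library, 2182 in 2 to 4 and 59 in 5 or more, with a maximum of 8 libraries for 4 of them. The number of libraries went with the joint. The middle part had a mean of 10.7 bases (SD 4.01) in clonotypes of 1 library, 7.90 (SD 3.64) in those of 2 to 4 and 5.97 (SD 4.14) in those of 5 or more. The last group used Trbj2 in 84.7% of cases, against 74.3% in the first. Widely listed clonotypes were small: none of the 59 exceeded 12 UMIs or 0.0183% of TRBC UMIs in any library. The 5 listed in most libraries are shown, with capitals as above.
8 libraries (Trbj1-1, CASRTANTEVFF): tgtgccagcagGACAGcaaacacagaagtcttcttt
8 libraries (Trbj1-3, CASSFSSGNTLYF): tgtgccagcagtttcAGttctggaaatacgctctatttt
8 libraries (Trbj2-1, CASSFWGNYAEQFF): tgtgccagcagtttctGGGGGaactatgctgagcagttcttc
8 libraries (Trbj2-7, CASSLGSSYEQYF): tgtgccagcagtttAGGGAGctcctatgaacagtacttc
7 libraries (Trbj2-1, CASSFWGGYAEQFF): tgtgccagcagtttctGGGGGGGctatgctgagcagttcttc

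The first of these has the same V end and the same middle bases, GACAG, as the largest clonotype of the control IgG tumor and differs from it in its J region. It had 4 UMIs in the BF10 tumor, 3 in the BF10 tdLN and 2 or fewer elsewhere, and it was not listed in the control IgG tumor. By amino acids, where different nucleotide joints can give 1 CDR3, sharing was wider. Of 30175 combinations of J region and CDR3 residues, 25469 were in 1 library and 9 in 10 libraries, the most of any. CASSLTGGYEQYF with Trbj2-7 was made by 22 nucleotide joints in 10 libraries and held 105 UMIs in all, and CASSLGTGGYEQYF with Trbj2-7 was made by 19. Combinations in 1 library were made by 1.01 nucleotide joints on average and those in 10 libraries by 12.4.

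**Figure D5:**
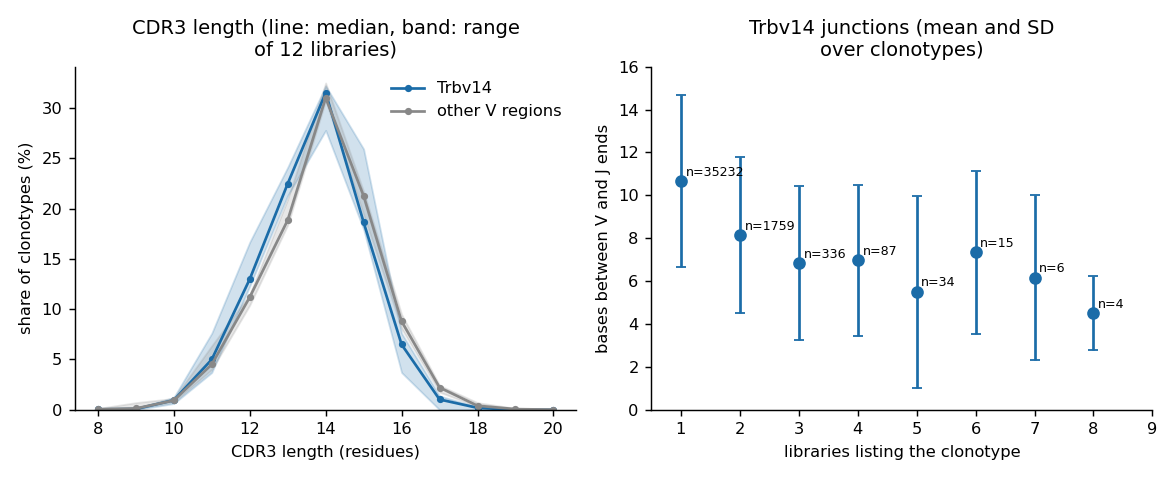
Left, share of clonotypes (percent) by CDR3 length in residues for Trbv14 and for other V regions, as the median (line) and range (band) of 12 libraries. Right, mean number of bases between the germline V and J ends of distinct Trbv14 clonotypes, with SD over clonotypes, by the number of libraries that list them. The mean is 10.7 bases in clonotypes of 1 library and lower, at 4.5 to 8.15 bases, in those of 2 to 8 libraries.

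The V region of a clonotype is the assignment of the analysis portal. In 0% to 8.01% of Trbv14 clonotypes of a library, the same J region and CDR3 sequence was also listed there under another V region, with the highest values in the tdLN libraries with αCSF1R (8.01%) and BF10 (7.83%). In these 2 libraries 81.7% and 83.2% of Trbv14 clonotypes had 1 UMI, against 19.4% to 59.4% elsewhere, and 10.6% and 8.66% of Trbv14 UMIs had at least 7 reads, against 36.1% to 70.9%. The part of these differences in the tdLN values above was not tested. None of the 20 tumor clonotypes described was listed under another V region in its tumor. The largest Trbv14 clonotype of the αCSF1R spleen was also listed under another V region, with 2 UMIs. Its capitals begin with the bases GA, which stand at the same place in the Trbv13-3 end, so its V region is less certain.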

How the data were processed

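CD8 T cell RNA of 12 libraries was amplified with the QIAseq mouse TCR kit, and the authors' analysis portal assigned V region, J region and CDR3 (version and germline reference not given in the sources used here; the labels name mm10). The authors deposited counts of UMIs per clonotype at minimum reads per UMI of 3 to 7, without normalization, and a fraction, the count divided by the total of its library and chain. Counts with at least 3 reads were used. TRBC UMIs numbered 32784 to 210616 per library, so 3 counts, the share that an unlisted clonotype may still have, are 0.00142% to 0.00915%. Groups came from the labels.

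With Python 3.11.15, Wilson intervals, 1.5-fold counts over TRBV genes with at least 100 UMIs in the pair, germline matching to GRCm38 (mm10; GENCODE M21) and Morisita-Horn indices over the 24 pairings of treatments were computed (the permutation test planned for them is not reported, since the choice of the gene used related values), and the steps were tested on simulated data. Named clonotypes are the 5 largest of each tumor, the largest of each spleen and tdLN (ties by UMIs with at least 7 reads, then sequence) and the 5 in most libraries. Named V regions are Trbv14, the 3 with the highest rho, the locus neighbours and, chosen after their values were seen, those sharing a count. Alternatives were at least 7 reads, at least 2 UMIs, merged CDR3s, amino acid CDR3s, large clonotypes left out and presence only. Trbv14 and all lists were chosen with earlier results of these data known.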

Additional observations from a re-analysis of the deposited data

How the results depend on the processing

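With 1 library per treatment and tissue, no alternative has a replicate spread to be read against, and a value is said to move where it left its 95% counting interval. A block by replicate number could not be fitted, since the labels carry none, and tissues were set side by side within each treatment as description. Leaving out clonotypes of 0.1% or more moved the Trbv14 share of TRBC UMIs in the control IgG tumor to 3.99%, in the αCSF1R tumor to 4.05% and in the IL-10-Fc tumor to 4.37%. By its construction this setting leaves out large clonotypes, none of them of Trbv14 in the first 2 of these tumors and 3 of 23 in the IL-10-Fc tumor. For the other moves below the cause was not tested. With at least 7 reads per UMI the UMI share was 4.61% in the IL-10-Fc tumor, 4.29% in the BF10 tumor, 3.73% and 3.74% in the tdLN with IL-10-Fc and BF10, and 4.15%, 4.44%, 3.99% and 4.82% in spleens after control IgG, after IL-10-Fc, after αCSF1R and after BF10. With at least 2 UMIs per clonotype it was 3.55%, 2.56% and 3.00% in the tdLN with IL-10-Fc, αCSF1R and BF10, and 4.18% and 4.58% in spleens with control IgG and IL-10-Fc. Merging CDR3s and adding the listing with several V regions moved no UMI share.

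The clonotype share was 4.60% in the BF10 tumor and 4.40% and 4.60% in spleens with control IgG and IL-10-Fc at 7 reads, and 2.76% and 3.31% in the tdLN with αCSF1R and BF10 at 2 UMIs. With CDR3 amino acids it was 4.99% in the BF10 tumor and 3.88%, 3.38% and 3.96% in the tdLN with IL-10-Fc, αCSF1R and BF10. The Trbj2 share of Trbv14 UMIs was 78.9% in the IL-10-Fc tumor, 70.0% in the BF10 tdLN and 72.2% in the control IgG spleen at 7 reads, and 76.7% in the IL-10-Fc tumor with clonotypes counted once. Mean CDR3 length was 13.56 residues weighted by UMIs in the IL-10-Fc tumor and 13.63 at 7 reads in the IL-10-Fc spleen. Between tumor and spleen the true pairing of treatments was no longer the highest of 24 with amino acids (ratio of Morisita-Horn indices 1.15), at 7 reads (1.62) and at 2 UMIs (1.60). With each treatment left out in turn, the ratio was 8.21 to 23.4 for tumor and tdLN, 2.03 to 2.34 for tdLN and spleen and 1.31 to 3.30 for tumor and spleen. The true pairing was then the highest of 6 in every case. This follows by construction from its being the highest of 24 in the main setting, and so adds nothing. Fewer UMIs limit the αCSF1R tumor most, where 512 Trbv14 UMIs form 108 clonotypes.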
